A study of Mus musculus with 18 samples.

Results

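The genes described are the 4 pore-forming subunits of the AMPA-type glutamate receptor (Gria1 to Gria4), the auxiliary subunits Cnih2, Cnih3, Gsg1l and Shisa9, and the scaffold proteins Grip1 and Grip2. They were chosen by symbol and are 10 of the 23420 gene rows of the deposited count table. All 10 passed the filter on low counts in every comparison. The mice carried Camk2a-Cre and Rpl22HA, an allele that puts an HA tag on a large-subunit ribosomal protein where Cre is active, and every group shared this genotype. Brain RNA was taken from mice without a tumor (control), mice with glioma cells implanted in the cortex (tumor), and implanted mice given AZD8055, an inhibitor of the kinase mTOR (AZD). Each condition gave total RNA (input) and polysomal RNA pulled down through the tag (IP), with 3 libraries in each of the 6 groups and 18 in all.

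The Camk2a promoter directs Cre mainly to excitatory neurons of the forebrain, and the implanted cells and other host cells were also present in the input. The sources used here do not give age, sex, the glioma line, or the dose and timing of AZD8055. They also do not say whether libraries with different numbers came from separate mice, so the p-values reflect only how far these libraries varied, and that variation may be technical. The sample descriptions carry 3 prefixes, which are called library sets here, although the labels do not say what the prefixes stand for. One held control and tumor input, another held control and tumor IP, and the third held all AZD libraries. Each comparison of tumor with control in the same fraction lay within 1 set, as did the comparison of the AZD fractions. In the other pairwise comparisons the set and the group cannot be told apart.

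AMPA receptors are tetramers that carry most fast excitatory transmission in the brain. Their subunits differ in gating and trafficking, and a receptor that contains an RNA-edited Gria2 subunit (GluA2) passes little calcium. Cornichon proteins, CKAMP proteins such as Shisa9, and GSG1L bind the pore-forming subunits and set their export, desensitization and recovery, while GRIP proteins hold the tails of GluA2 and GluA3 through PDZ domains. Precursors of oligodendrocytes also express AMPA receptors, Gria4 among them.

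RefSeq promoter windows on GRCm38.p6, each running from 250 bases before to 50 bases after a gene start, matched 6 of the 10 genes (Gria2, Gria4, Cnih2, Cnih3, Grip1 and Grip2). Those of Gria4, Cnih2, Cnih3 and Grip2 are shown because these 4 genes differed between tumor and control in both fractions, Gria4 upward and the other 3 downward. Each reads 5′ to 3′ on the strand of its gene, and capitals mark the GC box GGGCGG on either strand. The windows lie at chr9:4796185-4796484 (minus strand) for Gria4, chr19:5098472-5098771 (minus strand) for Cnih2, chr1:181352378-181352677 (plus strand) for Cnih3 and chr6:91807344-91807643 (minus strand) for Grip2. Those of Cnih3 and Grip2 lie inside the spans of their genes (chr1:181350459-181460641 and chr6:91761452-91843954), so they are not at the outermost start.
Gria4: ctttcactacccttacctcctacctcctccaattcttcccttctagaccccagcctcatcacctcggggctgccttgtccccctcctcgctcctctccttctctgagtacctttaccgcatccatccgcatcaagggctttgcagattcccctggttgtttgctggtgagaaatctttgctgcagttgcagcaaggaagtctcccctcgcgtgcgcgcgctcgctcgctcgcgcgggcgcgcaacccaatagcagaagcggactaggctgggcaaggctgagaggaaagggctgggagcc
Cnih2: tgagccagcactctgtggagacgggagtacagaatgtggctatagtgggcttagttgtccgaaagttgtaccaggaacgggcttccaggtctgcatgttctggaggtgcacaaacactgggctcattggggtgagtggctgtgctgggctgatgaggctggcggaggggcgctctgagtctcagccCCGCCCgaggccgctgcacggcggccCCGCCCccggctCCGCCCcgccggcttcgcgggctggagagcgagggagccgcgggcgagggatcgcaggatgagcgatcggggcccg
Cnih3: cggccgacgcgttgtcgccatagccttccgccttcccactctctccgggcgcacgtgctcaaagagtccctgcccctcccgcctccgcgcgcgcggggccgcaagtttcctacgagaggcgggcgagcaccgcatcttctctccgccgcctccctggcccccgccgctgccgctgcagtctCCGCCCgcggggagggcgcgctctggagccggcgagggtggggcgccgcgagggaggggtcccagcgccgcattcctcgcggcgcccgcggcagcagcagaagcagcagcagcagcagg
Grip2: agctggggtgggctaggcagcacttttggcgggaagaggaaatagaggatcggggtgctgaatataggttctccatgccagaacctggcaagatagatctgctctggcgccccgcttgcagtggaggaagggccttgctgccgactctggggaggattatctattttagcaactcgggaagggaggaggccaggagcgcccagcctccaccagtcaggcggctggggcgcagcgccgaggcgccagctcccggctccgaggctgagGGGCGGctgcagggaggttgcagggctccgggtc
The Gria4 window held no GC box, the Cnih2 window held 3, and the Cnih3 and Grip2 windows held 1 each. Of all 32851 RefSeq windows of 300 bases, 35.7% held at least 1 GC box. The E-box CAGCTG, searched on both strands, was in none of the windows of the 6 genes and in 16.3% of all windows. GC content was 59.7% in the Gria4 window, 67.3% in Cnih2, 75.3% in Cnih3 and 64.3% in Grip2. These letter matches are descriptions of the windows and carry no information on what binds there.

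Library totals ran from 13561511 to 34178417 counts, and the 10 genes had between 84 and 46466 counts in a library. Levels are given as CPM, the counts of a gene scaled to library size with TMM factors. Since no transcript length enters them, levels, and sums, shares and ratios of them, are compared between groups and libraries only. Excitatory-neuron markers were present in every group, with 10 listed genes summing to 2550 to 2830 CPM in control input and 3200 to 3910 CPM in control IP. Astrocyte markers were also abundant in control IP, at 7380 to 7930 CPM against 7570 to 8800 CPM in control input. In AZD IP the astrocyte sum was 1810 to 2380 CPM, against 5210 to 6350 CPM in AZD input. The summed markers of inhibitory neurons, oligodendrocytes, microglia and endothelial cells were likewise lower in AZD IP than in each other group. No listed marker of these cell types was at 0 across a group.

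**Figure D1:**
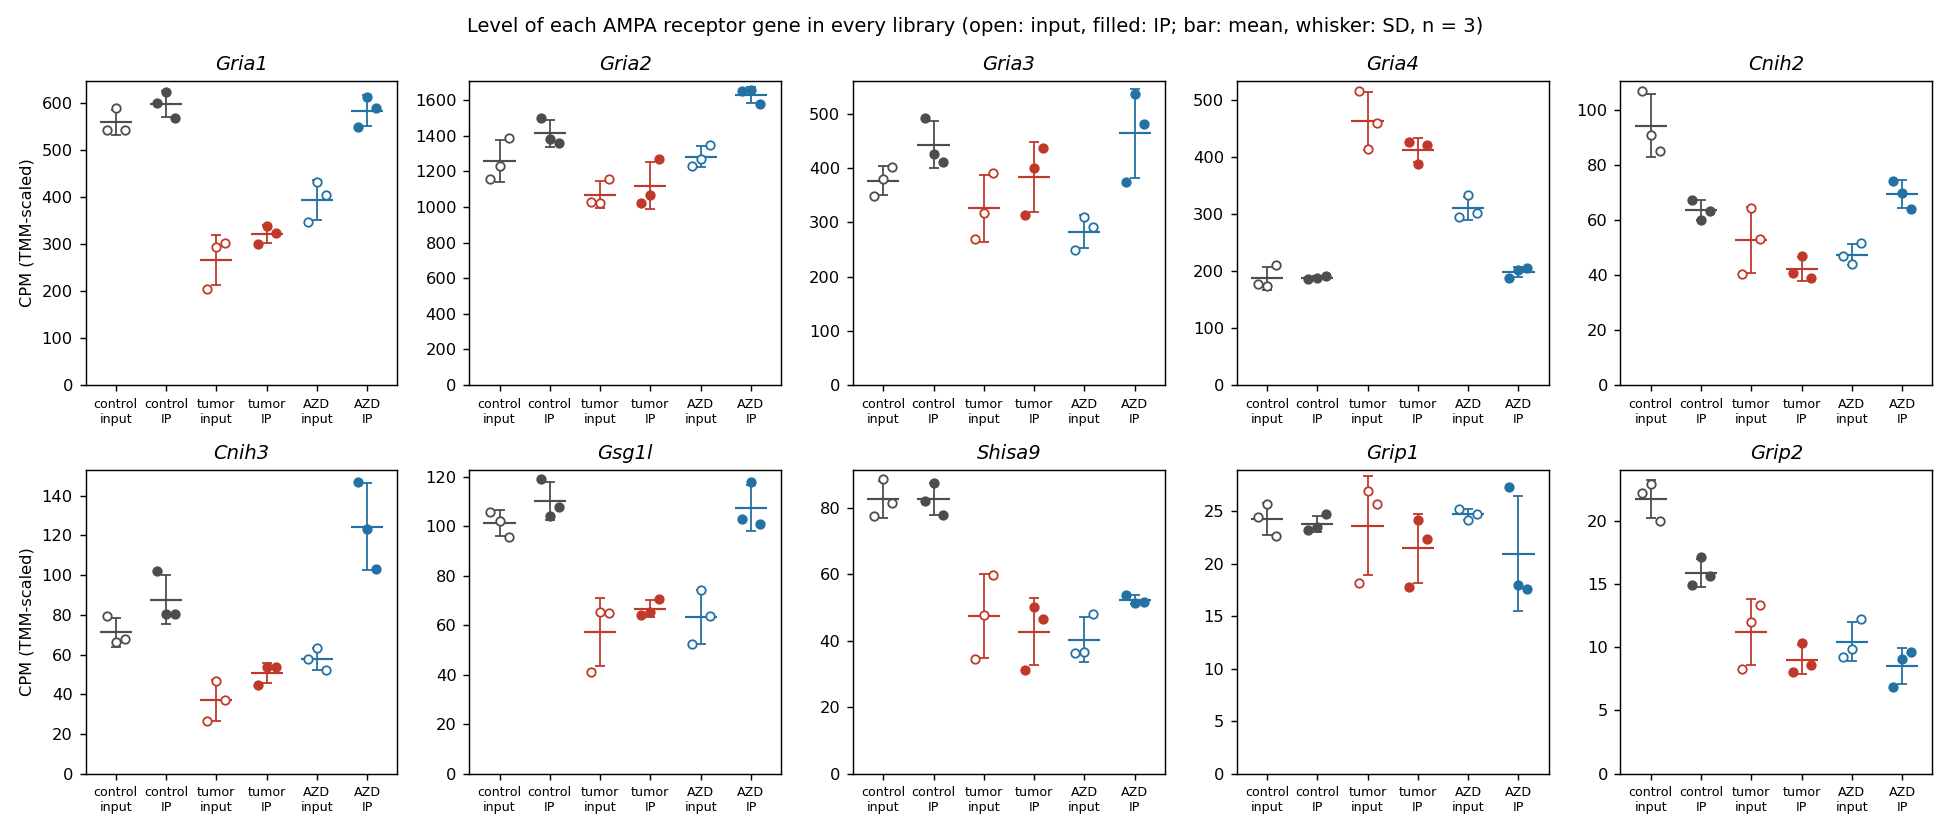
Level of each of the 10 genes in all 18 libraries, in TMM-scaled CPM (vertical axis, from 0) by group (horizontal axis); open points are input and filled points IP, bars are means and whiskers SD of 3 libraries. Gria4 is highest in tumor input and tumor IP, while Gria1, Cnih3 and Gsg1l have their lowest means in tumor input.

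Tumor and control were compared first, to show which receptor genes differed in the glioma-bearing cortex. Gria4, a subunit with fast kinetics, was higher in tumor, and Gria1, the subunit best known for activity-dependent delivery to synapses, was lower, in both fractions. The 3 control input libraries held Gria4 at 177, 174 and 210 CPM, and tumor input held it at 515, 413 and 459 CPM. In IP it stood at 185, 187 and 191 CPM in control and at 425, 387 and 421 CPM in tumor. Every tumor library was above every control library of its fraction. The log2 fold change was 1.30 ± 0.12 (SE) in input, with an adjusted p of 2.37e-05 in edgeR's quasi-likelihood test, and 1.16 ± 0.08 in IP, with an adjusted p of 2.45e-06. For Gria1 the control input values were 544, 591 and 543 CPM and the tumor input values 205, 293 and 302 CPM. Its IP values were 601, 625 and 569 CPM in control and 301, 339 and 323 CPM in tumor. The groups again did not overlap, and Gria1 fell by 1.08 ± 0.15 on the log2 scale in input (adjusted p = 0.000307) and by 0.87 ± 0.09 in IP (adjusted p = 3.66e-05). In bulk RNA, fewer cells of a type and less RNA per cell cannot be told apart.

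Gria2, the subunit that limits calcium entry, differed less. Control input held 1160, 1230 and 1390 CPM, and tumor input 1030, 1020 and 1160 CPM. In IP it was 1500, 1380 and 1360 CPM in control and 1020, 1070 and 1270 CPM in tumor. Tumor lay below control without overlap in both fractions, although the highest tumor input library and the lowest control input library were equal to 3 digits. The log2 difference of -0.25 ± 0.11 in input did not pass (adjusted p = 0.095, or 0.0441 with DESeq2), and the drop in IP passed only narrowly, at -0.31 ± 0.11 (adjusted p = 0.0373). The IP call was lost without control IP replicate 1, 2 or 3 and without tumor IP replicate 1 or 2, with log2 values of -0.33 to -0.25 and adjusted p of 0.072 to 0.116. It was also lost with same-numbered libraries as a block (-0.32, adjusted p = 0.0702), a fit in which 47.5% of all genes were called. With no filter on low counts it was lost as well, at -0.34 (adjusted p = 0.0692). Gria3, which commonly assembles with GluA2, had control input values of 349, 380 and 402 CPM and tumor input values of 269, 317 and 391 CPM. Its IP values were 493, 426 and 411 CPM in control and 313, 401 and 438 CPM in tumor. The ranges overlapped, and the log2 differences of -0.22 ± 0.14 in input (adjusted p = 0.201) and -0.18 ± 0.16 in IP (adjusted p = 0.371) did not pass. Without tumor input replicate 3 the input difference of Gria3 passed, at -0.37 (adjusted p = 0.0451).

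Among the auxiliary subunits, all 4 fell in tumor in both fractions. Cnih2 and Cnih3 are cornichon proteins that promote export of AMPA receptors and slow their deactivation. The control input values of Cnih2 were 107, 90.8 and 84.9 CPM and its tumor input values 40.5, 64.5 and 52.9 CPM. Cnih2 in IP was at 67.4, 60.1 and 63.1 CPM in control and 40.8, 46.9 and 38.8 CPM in tumor. No tumor library reached a control library of its fraction, and Cnih2 fell by 0.85 ± 0.16 in input (adjusted p = 0.00207) and by 0.57 ± 0.10 in IP (adjusted p = 0.001) on the log2 scale. Cnih3 had 79.5, 66.3 and 67.8 CPM in control input against 26.6, 46.8 and 37.3 CPM in tumor input. In IP the control values were 102, 80.6 and 80.5 CPM and the tumor values 44.8, 53.8 and 53.7 CPM. These groups were apart as well, with log2 changes of -0.96 ± 0.18 in input (adjusted p = 0.00184) and -0.76 ± 0.14 in IP (adjusted p = 0.0017).

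Gsg1l, an auxiliary subunit that slows recovery from desensitization, had means of 101 ± 5.06 CPM (SD, n = 3) in control input and 57.3 ± 13.9 CPM in tumor input. Its IP means were 110 ± 7.63 CPM in control and 66.8 ± 3.52 CPM in tumor. It fell by 0.83 ± 0.18 in input (adjusted p = 0.0034) and by 0.70 ± 0.09 in IP (adjusted p = 0.00021) on the log2 scale. Shisa9, also known as CKAMP44, averaged 82.5 CPM in both control fractions and 47.3 ± 12.6 CPM in tumor input. Its tumor IP libraries held 31.3, 50.2 and 46.6 CPM. It fell by 0.82 ± 0.18 in input (adjusted p = 0.00424) and by 0.92 ± 0.15 in IP (adjusted p = 0.00057). The scaffold genes went separate ways. Grip2 dropped from 21.7 ± 1.49 to 11.2 ± 2.6 CPM in input, a log2 change of -0.97 ± 0.18 (adjusted p = 0.00206), and from 15.9 ± 1.09 to 9.02 ± 1.18 CPM in IP, a change of -0.79 ± 0.15 (adjusted p = 0.00184). Grip1 was at 24.2 ± 1.57 CPM in control input and 23.6 ± 4.73 CPM in tumor input, and its log2 differences of -0.05 ± 0.15 in input and -0.12 ± 0.17 in IP did not pass (adjusted p = 0.78 and 0.579).

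Counted together, 7 of the 10 genes were called in input, 1 higher and 6 lower, where 48.1% of all 15511 genes tested were called. In IP 8 were called, 1 higher and 7 lower, where 47.0% of 15734 genes were called. Of all genes, 23.6% were called lower and 24.5% higher in input, and 20.9% lower and 26.1% higher in IP. The median log2 difference of the 10 genes was -0.83 in input and -0.63 in IP, beside -0.01 and 0.02 over all genes tested. In each fraction 8 of the 10 genes had groups without overlap, as did 59.9% of all genes in input and 60.6% in IP.

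**Figure D2:**
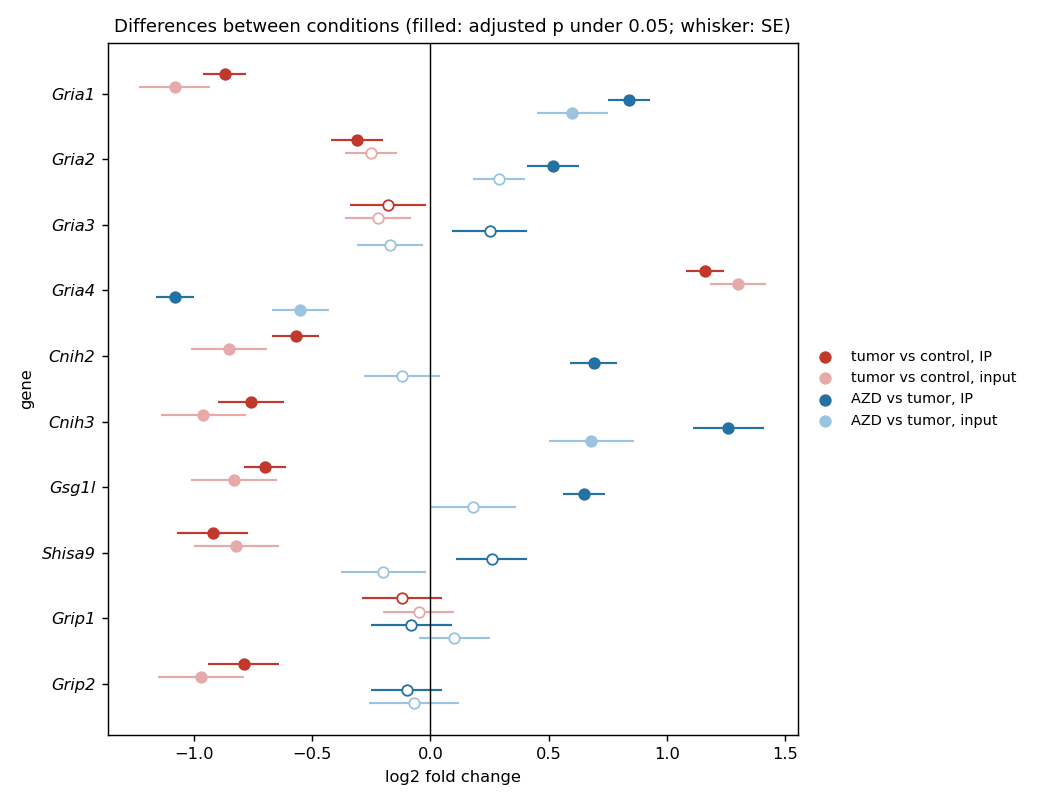
Log2 fold change (horizontal axis) of each gene (vertical axis) for tumor against control and for AZD against tumor, in IP and input; whiskers are SE and filled points have an adjusted p under 0.05. Gria4 lies at 1.30 and 1.16 for tumor against control and at -0.55 and -1.08 for AZD against tumor, opposite in sign to Gria1 in all 4 comparisons.

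Cell markers moved with these differences. All 10 markers of oligodendrocyte precursors and the glioma lineage were called higher in tumor in both fractions, and their sum rose from 554 to 633 CPM in control input to 6420 to 7770 CPM in tumor input. In IP that sum was 422 to 565 CPM in control and 5190 to 5810 CPM in tumor. Excitatory-neuron markers were called lower in tumor for 10 of 10 genes in input and 9 of 10 in IP, and their sum was 946 to 1690 CPM in tumor input and 1540 to 1940 CPM in tumor IP. Inhibitory-neuron markers were lower for 10 of 10 genes in input and 8 of 10 in IP. Glial lists fell too. Of 10 oligodendrocyte markers, 7 were lower and 1 higher in each fraction. Of 10 astrocyte markers, 7 were lower in input and 6 in IP, and 2 were higher in each. Microglia markers were lower for 1 of 10 in input and 0 in IP, and endothelial markers for 2 and 1. All 10 dividing-cell markers were higher in both fractions. The tumor input library with the highest Gria4 and the lowest Gria1, replicate 1, also had the highest glioma-lineage sum (7770 CPM) and the lowest excitatory sum (946 CPM). The part of these cell types in the changes of the receptor genes was not tested.

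The ratio of Gria4 to Gria1 put the opposite changes into 1 value per library. In control the mean log2 ratio was -1.58 ± 0.20 (SD, n = 3) for input and -1.67 ± 0.09 for IP. The tumor means were 0.81 ± 0.45 for input and 0.36 ± 0.15 for IP. The lowest tumor value, 0.19, was above the highest control value, -1.37. AZD input lay between, at -0.35 ± 0.09, and AZD IP was at -1.56 ± 0.05, within the range of the control IP libraries or just above it (-1.74 to -1.57 in control IP and -1.61 to -1.52 in AZD IP). The share of Gria4 in the summed CPM of the 4 subunits moved from 7.84% in control input to 21.8% in tumor input and 13.6% in AZD input. Across the IP groups the share was 7.13% for control, 18.5% for tumor and 6.89% for AZD. Gria2 over the sum of the other 3 subunits moved less, from a mean log2 of 0.16 ± 0.09 in control input to 0.02 ± 0.03 in tumor input and 0.38 ± 0.12 in AZD input. The ratios and shares are descriptions with no test. Without transcript lengths a share does not give the subunit composition, and only its change between groups is read.

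**Figure D3:**
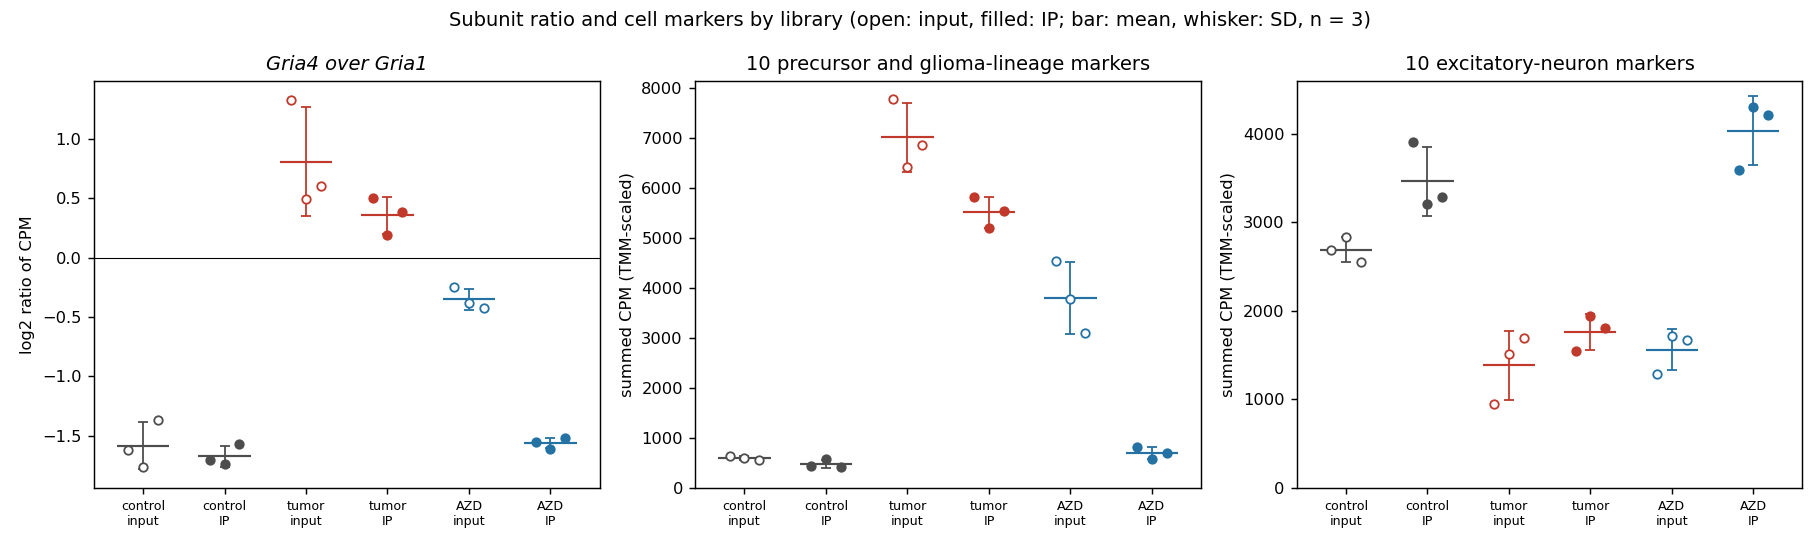
Log2 ratio of Gria4 to Gria1 CPM (left), summed CPM of 10 precursor and glioma-lineage markers (middle) and of 10 excitatory-neuron markers (right) in every library; open points are input, filled points IP, bars means and whiskers SD of 3 libraries. The ratio is higher in all 6 tumor libraries than in the other 12, its sign having no meaning without transcript lengths, and the glioma-lineage sum is highest in the tumor libraries.

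Each gene was also set against the mean log2 CPM of the 10 excitatory-neuron markers of the same library. This measure was chosen after the levels had been seen and carries no test. Relative to those markers, Gria1 was at 2.49 ± 0.06 (log2, SD, n = 3) in control input and 2.37 ± 0.09 in tumor input, and at 2.23 ± 0.16 in control IP and 2.22 ± 0.13 in tumor IP. Cnih3 was at -0.48 ± 0.15 and -0.50 ± 0.18 in the same input groups, and Grip2 at -2.19 ± 0.10 and -2.21 ± 0.07. Cnih2 went from -0.08 ± 0.18 in control input to 0.02 ± 0.19 in tumor input, Gsg1l from 0.03 ± 0.07 to 0.14 ± 0.03 and Shisa9 from -0.27 ± 0.09 to -0.14 ± 0.15. Gria1, Cnih2, Cnih3, Gsg1l, Shisa9 and Grip2 thus fell in tumor input by about as much as the excitatory markers did. In IP, Cnih2 went from -1.01 ± 0.06 in control to -0.71 ± 0.20 in tumor, without overlap. Cnih3 went there from -0.55 ± 0.07 to -0.44 ± 0.06 and Gsg1l from -0.21 ± 0.04 to -0.04 ± 0.18. Shisa9 went from -0.63 ± 0.18 to -0.72 ± 0.16 and Grip2 from -3.01 ± 0.23 to -2.94 ± 0.13. The IP groups overlapped for Cnih3, Gsg1l, Shisa9 and Grip2. Gria2 was at 3.66 ± 0.13 in control input and 4.39 ± 0.36 in tumor input, and Gria3 at 1.92 ± 0.10 and 2.66 ± 0.22. Grip1 moved from -2.03 ± 0.09 to -1.13 ± 0.10, and Gria4 from 0.91 ± 0.15 to 3.18 ± 0.54. Gria2, Gria3 and Grip1 were therefore higher in tumor input relative to excitatory markers, although their CPM was not called higher. In IP, Gria2 went from 3.47 ± 0.07 in control to 4.02 ± 0.17 in tumor, and Gria3 from 1.79 ± 0.05 to 2.47 ± 0.09. Grip1 went there from -2.42 ± 0.17 to -1.69 ± 0.04, and Gria4 from 0.56 ± 0.15 to 2.58 ± 0.26. From tumor IP to AZD IP the measure went down for genes whose CPM rose, from 2.22 ± 0.13 to 1.91 ± 0.08 for Gria1, from 4.02 ± 0.17 to 3.39 ± 0.06 for Gria2, from -0.71 ± 0.20 to -1.17 ± 0.13 for Cnih2 and from -0.04 ± 0.18 to -0.54 ± 0.13 for Gsg1l. Cnih3 was at -0.44 ± 0.06 in tumor IP and -0.33 ± 0.28 in AZD IP, and Gria4 went from 2.58 ± 0.26 to 0.35 ± 0.05. For genes whose CPM was not called different the measure also went down. It went from 2.47 ± 0.09 to 1.56 ± 0.26 for Gria3 and from -0.72 ± 0.16 to -1.57 ± 0.05 for Shisa9. For Grip1 it went from -1.69 ± 0.04 to -2.92 ± 0.37, and for Grip2 from -2.94 ± 0.13 to -4.20 ± 0.24.

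AZD and tumor were compared next, to show which genes differed after mTOR inhibition. Gria1, Gria2, Cnih2, Cnih3 and Gsg1l were higher and Gria4 was lower in AZD IP. Cnih3 had the largest increase of the 10 genes. Its values in AZD IP were 147, 123 and 103 CPM, and in AZD input 57.5, 63.2 and 52.3 CPM, while tumor IP held 44.8, 53.8 and 53.7 CPM. The AZD IP libraries were above all other libraries, though the lowest, at 103 CPM, was only just above a control IP library at 102 CPM. The log2 change of Cnih3 from tumor IP was 1.26 ± 0.15 (adjusted p = 3.88e-05). Gria1 was at 549, 614 and 589 CPM in AZD IP and at 348, 432 and 404 CPM in AZD input. It rose by 0.84 ± 0.09 in IP (adjusted p = 2.9e-05) and by 0.60 ± 0.15 in input (adjusted p = 0.0212). Gria4 was at 188, 201 and 205 CPM in AZD IP and 294, 332 and 302 CPM in AZD input. Both sets of values were below all tumor libraries of their fraction, and Gria4 fell by 1.08 ± 0.08 in IP (adjusted p = 2.63e-06) and by 0.55 ± 0.12 in input (adjusted p = 0.0113).

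Gria2 was at 1650, 1660 and 1580 CPM in AZD IP, the highest of the 6 groups, and at 1230, 1270 and 1350 CPM in AZD input. Its rise in IP was 0.52 ± 0.11 (adjusted p = 0.00213), while the input difference of 0.29 ± 0.11 did not pass (adjusted p = 0.105). With DESeq2 that input difference passed, at 0.28 (adjusted p = 0.0395). Gria3 was at 375, 536 and 481 CPM in AZD IP and 249, 309 and 291 CPM in AZD input. AZD IP replicate 1 lay among the tumor IP libraries, and neither difference passed, at 0.25 ± 0.16 in IP (adjusted p = 0.196) and -0.17 ± 0.14 in input (adjusted p = 0.425). Cnih2 was at 74.3, 69.7 and 64.0 CPM in AZD IP, above all tumor IP libraries, and at 46.7, 44.0 and 51.5 CPM in AZD input, within the tumor input range. It rose by 0.69 ± 0.10 in IP (adjusted p = 0.000163), and its input difference of -0.12 ± 0.16 did not pass (adjusted p = 0.645). Gsg1l rose by 0.65 ± 0.09 in IP (adjusted p = 0.000178) to 107 ± 9.3 CPM, and differed by 0.18 ± 0.18 in input (adjusted p = 0.517). Shisa9, at 52.3 ± 1.37 CPM in AZD IP, differed by 0.26 ± 0.15 (adjusted p = 0.144). For Grip1 and Grip2 the IP differences were -0.08 ± 0.17 and -0.10 ± 0.15 (adjusted p = 0.717 and 0.615).

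In IP, 6 of the 10 genes were called between AZD and tumor, 5 higher and 1 lower, where 58.7% of all genes were called, 25.1% higher and 33.5% lower. Groups did not overlap for 7 of the 10 genes in IP and 4 in input, and for 63.4% and 34.4% of all genes. In input 3 were called, Gria1 and Cnih3 higher and Gria4 lower, beside 17.1% of all genes (7.89% higher and 9.17% lower). The input calls of Gria1 and Cnih3 were each lost without AZD input replicate 2 (adjusted p = 0.0835 and 0.0941) and without AZD input replicate 3 (0.0693 and 0.0503), which left 1 call. That of Cnih3 was also lost without tumor input replicate 3 (adjusted p = 0.0565). All 10 excitatory markers were called higher and all 10 glioma-lineage markers lower in AZD IP than in tumor IP. The fall was not particular to the glioma lineage. All 10 markers of astrocytes, oligodendrocytes, microglia, endothelial cells and dividing cells were also called lower, as were 9 of 10 inhibitory-neuron markers. The excitatory and glioma-lineage sums in AZD IP were 3590 to 4300 CPM and 578 to 820 CPM. In input all 10 glioma-lineage markers were called lower (3100 to 4540 CPM in AZD input) and 1 excitatory marker higher (1290 to 1710 CPM). Without AZD input replicate 3 those counts were 6 and 0, and without AZD input replicate 2 the excitatory count was 0. The part of these markers' cells in the receptor gene changes was not tested, and AZD8055 and the library set cannot be told apart.

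AZD was then set against control, which shares libraries with the comparisons above. In IP, 3 of the 10 genes were called, where 33.3% of all genes were called, 16.0% higher and 17.4% lower. Groups did not overlap for 4 of the 10 genes and 52.1% of all genes. Shisa9 was lower by 0.66 ± 0.14 on the log2 scale (adjusted p = 0.00592), as the AZD IP libraries at 53.8, 51.3 and 51.6 CPM were all below the control IP libraries at 82.0, 87.5 and 77.9 CPM. Grip2 was lower by 0.88 ± 0.15 (adjusted p = 0.00161), with 6.87, 9.04 and 9.64 CPM in AZD IP against 14.9, 17.1 and 15.6 CPM in control IP. Cnih3 was higher by 0.51 ± 0.14 (adjusted p = 0.0199). The Cnih3 call was lost without control IP replicate 2 (adjusted p = 0.0848) or 3 (0.0762) and without AZD IP replicate 1 (0.0651) or 2 (0.0535). The differences of Gria1 (-0.04 ± 0.09), Gria4 (0.07 ± 0.08), Gsg1l (-0.04 ± 0.09) and Cnih2 (0.12 ± 0.10) did not pass, with adjusted p from 0.354 for Cnih2 to 0.797 for Gria1. Gria2 did not overlap between the groups and was higher by 0.21 ± 0.11, which did not pass (adjusted p = 0.177). Grip1, at -0.20 ± 0.17, passed only without AZD IP replicate 1, at -0.42 (adjusted p = 0.037).

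In input, AZD differed from control for 7 of the 10 genes, 1 higher and 6 lower, where 36.8% of all genes were called, 20.7% higher and 16.0% lower. Groups did not overlap for 8 of the 10 genes and 57.2% of all genes. Gria4 was higher by 0.75 ± 0.12 (adjusted p = 0.0011). Grip2 fell by 1.04 ± 0.19 (adjusted p = 0.00199), Shisa9 by 1.02 ± 0.18 (adjusted p = 0.00201) and Cnih2 by 0.98 ± 0.16 (adjusted p = 0.00139). Gsg1l fell by 0.66 ± 0.18 (adjusted p = 0.0151), Gria1 by 0.48 ± 0.15 (adjusted p = 0.0261) and Gria3 by 0.40 ± 0.14 (adjusted p = 0.0458). The last 3 calls rested on single libraries. The call of Gria3 was lost when any 1 of the 6 libraries was left out (adjusted p from 0.0633 to 0.154), and that of Gria1 for each of them but AZD input replicate 2 (0.0581 to 0.0954). That of Gsg1l was lost without control input replicate 1 (adjusted p = 0.0531) or AZD input replicate 1 (0.059), which left 4 of the 7 calls. With library totals the call of Gria3 was also lost, at -0.31 (adjusted p = 0.0724). Gria2, Cnih3 and Grip1 differed by 0.04 ± 0.11, -0.29 ± 0.18 and 0.04 ± 0.15 and did not pass.

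The order of the 6 groups differed by gene. For Gria1 it ran from tumor input (267 CPM) through tumor IP (321 CPM) and AZD input (395 CPM) to control input (559 CPM), AZD IP (584 CPM) and control IP (598 CPM), and the first 2 and the last 3 of these overlapped. Gria4 ran the other way, with control input (187 CPM), control IP (188 CPM) and AZD IP (198 CPM) overlapping at the bottom, AZD input (309 CPM) apart from its neighbours, and tumor IP (411 CPM) and tumor input (462 CPM) overlapping at the top. For Grip1, which ranged from 21.0 CPM in AZD IP to 24.7 CPM in AZD input, every pair of neighbours overlapped. Every pair of neighbours also overlapped for Gria3. Shisa9 and Grip2 had both control groups at the top, apart from the other 4 groups. The control groups overlapped each other for Shisa9 and did not for Grip2.

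IP was compared with input to show which genes were enriched in the tagged ribosomes. In control, 2 of the 10 genes were called, both lower in IP, where 36.5% of all genes were called, 17.7% higher and 18.8% lower. Cnih2 was lower in IP by 0.58 ± 0.09 (adjusted p = 0.000546) and Grip2 by 0.47 ± 0.10 (adjusted p = 0.0034). Grip2 lost its call with all 18 libraries in 1 fit (-0.45, adjusted p = 0.063). Cnih3, at 0.29 ± 0.11, missed the threshold (adjusted p = 0.0501). It passed with input and IP of 1 number paired, at 0.28 ± 0.07 (adjusted p = 0.00491, in a fit that called 45.0% of all genes), and without control input replicate 1 or control IP replicate 2 (adjusted p = 0.0227 and 0.0369). It also passed with RLE factors (0.0435), DESeq2 (0.0298) and no filter (0.0231). The 4 pore-forming subunits differed by -0.01 to 0.22 and none passed, the smallest adjusted p being 0.0844 for Gria3, which passed with DESeq2 (0.23, adjusted p = 0.0423). Groups did not overlap for 4 of the 10 genes, and for 49.4% of all genes. Of the 10 excitatory markers, 7 were called higher in control IP and 0 lower. Those 7 calls were 1 with all 18 libraries in 1 fit and 3 with library totals. Of 10 endothelial markers 7 were lower, and of 10 microglia markers 3. The inhibitory-neuron, oligodendrocyte and glioma-lineage lists each had 2 lower, and 1 astrocyte marker was higher. Control input and IP came from different library sets, so fraction and set cannot be told apart here or in tumor.

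In tumor, none of the 10 genes was called between IP and input, by edgeR or by DESeq2, and none had an unadjusted p under 0.05, while 5.09% of all genes were called (2.11% higher and 2.98% lower). The groups overlapped for all 10 genes, and did not overlap for 27.6% of all genes. With input and IP of 1 number paired, 4 were called, where 35.6% of all genes were. Gria1 (0.29 ± 0.09, adjusted p = 0.0123), Gria3 (0.25 ± 0.08, adjusted p = 0.0181) and Cnih3 (0.49 ± 0.10, adjusted p = 0.000354) were then higher in IP. Cnih2 was lower, at -0.30 ± 0.10 (adjusted p = 0.0168). Gria4, at -0.16 ± 0.08, was not called with the pairing (adjusted p = 0.124), and its level of 411 ± 20.6 CPM in tumor IP was close to the 462 ± 51.1 CPM of tumor input. Olig2, a transcription factor of the oligodendrocyte lineage, was at 206 ± 35.3 CPM in tumor IP and 227 ± 22.8 CPM in tumor input. Of the 10 precursor and glioma-lineage markers, 3 were called lower in tumor IP and 0 higher (7 lower with pairing). Their sum was 5190 to 5810 CPM in IP and 6420 to 7770 CPM in input. The 3 calls were 0 or 1 when any 1 library was left out. Of the 10 excitatory markers, 1 was called higher, and 8 higher and 1 lower with pairing. Without pairing, that 1 call was lost without tumor input replicate 2 or 3 or any 1 tumor IP library.

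In AZD, 8 of the 10 genes were called between IP and input, 7 higher and 1 lower, where 61.5% of all genes were called, 29.0% higher and 32.5% lower. Both fractions were in 1 library set. Cnih3 was higher in IP by 1.13 ± 0.14 (adjusted p = 0.000232), Gsg1l by 0.78 ± 0.13 (adjusted p = 0.00121) and Gria3 by 0.74 ± 0.15 (adjusted p = 0.00252). Gria1 was higher by 0.59 ± 0.11 (adjusted p = 0.00165), Cnih2 by 0.57 ± 0.10 (adjusted p = 0.00144), Gria2 by 0.37 ± 0.10 (adjusted p = 0.00933) and Shisa9 by 0.40 ± 0.12 (adjusted p = 0.0215). Gria4 was lower by 0.62 ± 0.09 (adjusted p = 0.000529). Grip1 (-0.23 ± 0.17, adjusted p = 0.272) and Grip2 (-0.26 ± 0.19, adjusted p = 0.258) did not pass. The pairs of groups did not overlap for 8 genes and for 68.0% of all genes.

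Scaling mattered in this comparison. With library totals and no scaling factors, the median of all genes moved from -0.02 to -0.30, and 5 of the 10 genes were called higher and 3 lower. Gria2 (0.09, adjusted p = 0.375) and Shisa9 (0.12, adjusted p = 0.414) lost their calls, and Grip1 (-0.51, adjusted p = 0.034) and Grip2 (-0.53, adjusted p = 0.0358) became lower. The share of calls over all genes that were higher was 47.2% with TMM and 25.8% with library totals in AZD, 48.4% and 31.6% in control, and 41.5% and 30.4% in tumor. Shisa9 also lost its call without AZD input replicate 1 (adjusted p = 0.0615) or 2 (0.0683), and Grip1 passed without AZD IP replicate 1 (-0.42, adjusted p = 0.0155). All 10 excitatory markers were called higher in AZD IP than in AZD input and all 10 of each other marker list were called lower. Genes with higher IP values thus moved with the excitatory list, and the part of this in each gene's value was not tested.

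**Figure D4:**
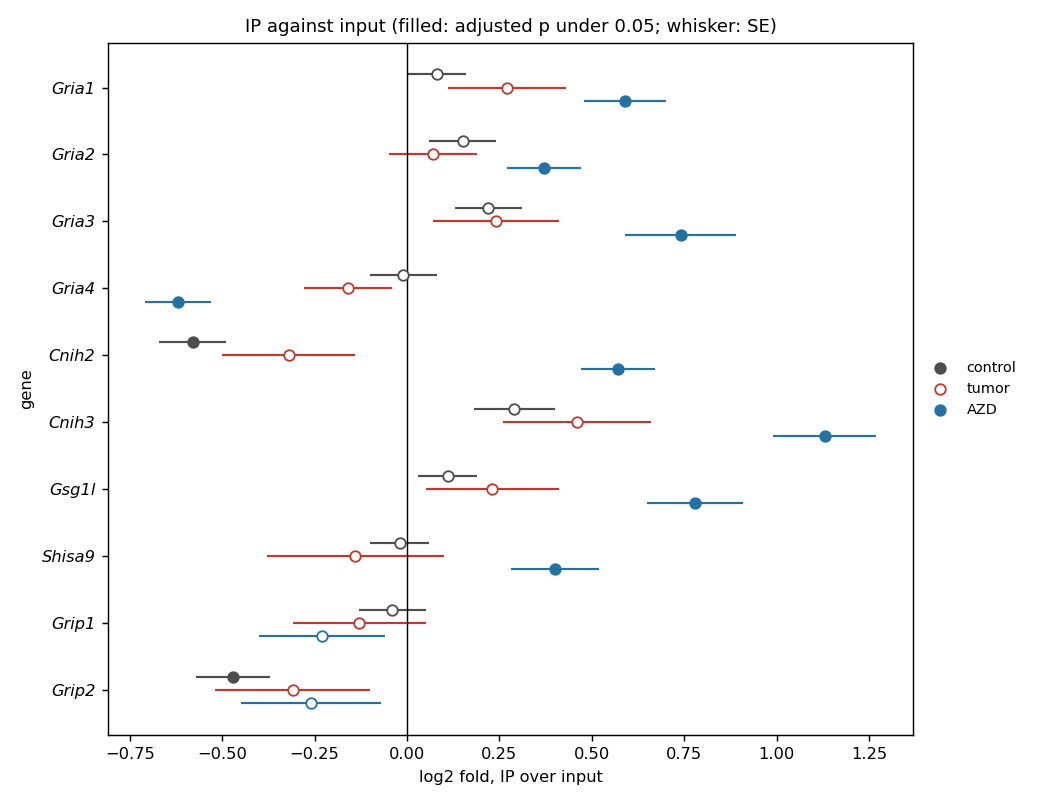
Log2 ratio of IP to input (horizontal axis) for each gene (vertical axis) in control, tumor and AZD; whiskers are SE and filled points have an adjusted p under 0.05 without pairing. In AZD 7 genes lie to the right and Gria4 to the left at -0.62, while in control only Cnih2 at -0.58 and Grip2 at -0.47 are filled.

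The IP-to-input ratio itself was then compared between conditions over all 18 libraries. For tumor against control, none of the 10 genes was called by edgeR, with or without pairing, or by DESeq2. None had an unadjusted p under 0.05, and 0.0687% of all genes were called (0.05% higher and 0.0187% lower). The log2 differences ran from -0.18 ± 0.14 for Gria4 to 0.25 ± 0.20 for Cnih2. For AZD against tumor, 2 of the 10 were called, where 33.1% of all genes were, 12.3% higher and 20.8% lower. The ratio of Cnih2 was higher in AZD by 0.87 ± 0.20 (adjusted p = 0.00337) and that of Gria4 lower by 0.47 ± 0.14 (adjusted p = 0.0149). With input and IP of 1 number paired, 6 genes were called, where 50.1% of all genes were. Cnih3 (0.61 ± 0.14, adjusted p = 0.00105), Shisa9 (0.53 ± 0.14, adjusted p = 0.0034), Gria3 (0.46 ± 0.13, adjusted p = 0.00475) and Gsg1l (0.52 ± 0.14, adjusted p = 0.00537) joined the higher calls. Without tumor input replicate 1, and without pairing, 7 were called, 6 higher and 1 lower, among them Gria1 at 0.46 (adjusted p = 0.0145). Tumor input and IP came from different sets and both AZD fractions from 1, so condition and set cannot be told apart in this difference. With library totals the median of all genes moved from -0.04 to -0.22 here, and the share of all calls that were higher from 37.2% to 17.8%. In AZD IP against tumor IP that median moved from -0.09 to -0.23. The calls of the 10 genes did not change with library totals in either comparison.

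The genes most alike to each subunit over the 18 libraries were found by Pearson's correlation of log2(CPM + 1), among 9995 genes with a mean of at least 10 CPM. The 18 points fall into 6 groups and 3 library sets, so these values describe mainly the differences between groups. For Gria1 they were Chrnb2 (r = 0.986), a subunit of the nicotinic acetylcholine receptor, Tmem130 (0.98), Zcchc18 (0.978) and Atp2b3 (0.977), a calcium pump of the plasma membrane. For Gria4 they were Limd1 (r = 0.988), Nfatc2 (0.987), a calcium-regulated transcription factor, Msrb3 (0.986) and Abhd2 (0.983). For Gria2 they were Ift57 (r = 0.964), Bnip3 (0.957), Fabp3 (0.951) and Opa1 (0.945), and for Gria3 Sel1l (0.941), Celf1 (0.94), Btbd3 (0.938) and Sfmbt1 (0.929). Gria4 had r = 0.97 with Olig2 and -0.96 with Gria1, and Gria1 had r = 0.90 with Camk2a, a kinase gene of excitatory neurons. Gria1 had r = 0.94 with Gsg1l and 0.10 with Grip1.

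Other genes of AMPA receptor biology came from a list of 32, of which 30 were tested; Shisa8 and Epb41l1 were not analysed here. Of the 30, 20 were lower and 2 higher in tumor IP than in control IP, and 18 were lower and 1 higher in tumor input than in control input. Over all genes, 20.9% were lower and 26.1% higher in IP, and 23.6% and 24.5% in input. The median log2 difference of the list was -0.44 in IP and -0.41 in input, beside 0.02 and -0.01 over all genes. Cacng4, which encodes a TARP (the family of auxiliary subunits founded by stargazin), was higher in tumor by 2.63 ± 0.22 in input (adjusted p = 1.04e-05) and by 2.75 ± 0.14 in IP (adjusted p = 2.78e-07). Its level was 12.4 ± 0.678 CPM in control input and 77.5 ± 6.59 CPM in tumor input. Cacng2, which encodes stargazin itself, fell by 1.06 ± 0.15 in IP (adjusted p = 0.000297). Dlg4, which encodes the postsynaptic scaffold PSD-95, fell by 0.93 ± 0.13 in IP (adjusted p = 0.000226), and Olfm1, a secreted partner of the receptor, by 0.87 ± 0.10 (adjusted p = 8.16e-05). In input Olfm1 fell by 0.94 ± 0.16 (adjusted p = 0.00132), Nsf, an ATPase that binds GluA2, by 0.85 ± 0.15 (adjusted p = 0.00143), and Adarb1, the enzyme that edits Gria2 RNA at its Q/R site, by 0.76 ± 0.11 (adjusted p = 0.00047). Cacng7 differed by 0.02 ± 0.13 in IP and -0.03 ± 0.13 in input, Abhd6 by -0.01 ± 0.10 in IP, and Lrrtm4 by 0.06 ± 0.13 in input, and none of these passed.

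By role, all 5 tested intracellular partners fell in tumor IP, as did 6 of 9 surface partners, 3 of 6 assembly and export genes, 3 of 6 TARPs and both editing enzymes, where 20.9% of all genes were called lower. The CKAMP pair tested was split, with Shisa6 higher by 0.45 ± 0.15 (adjusted p = 0.0319) and Shisa7 lower by 0.32 ± 0.11 (adjusted p = 0.0332). Between AZD IP and tumor IP, 21 of the 30 were higher and 2 lower, where 25.1% of all genes were higher and 33.5% lower. Prrt2 (1.41 ± 0.15, adjusted p = 1.91e-05), Nsf (1.29 ± 0.12, adjusted p = 1e-05) and Olfm1 (1.09 ± 0.10, adjusted p = 1.04e-05) were among the higher. Cacng4 fell by 2.76 ± 0.15 (adjusted p = 2.77e-07), to 10.4 ± 2.24 CPM, and Shisa6 fell by 1.08 ± 0.16 (adjusted p = 0.000174). Shisa7 (0.04 ± 0.11) and Lrrtm4 (0.08 ± 0.11) did not pass. Between AZD input and tumor input, 2 were higher and 2 lower, where 17.1% of all genes were called, with Cacng4 at -1.58 ± 0.20 (adjusted p = 0.00083) and Shisa7 at -0.57 ± 0.12 (adjusted p = 0.00938). The higher pair, Cpt1c and Nsf, lost their calls without AZD input replicate 2 (adjusted p = 0.0735 and 0.103) or 3 (0.052 and 0.105).

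Between AZD IP and AZD input, 20 of the 30 were higher and 2 lower, where 29.0% of all genes were higher and 32.5% lower. The list's median was 0.60 beside -0.02 over all genes. Nsf was higher by 1.34 ± 0.10 (adjusted p = 3.77e-05), Olfm1 by 1.19 ± 0.13 (adjusted p = 0.000149), Syndig1, a regulator of synapse differentiation, by 1.00 ± 0.13 (adjusted p = 0.000306), and Frrs1l, which acts in receptor assembly in the endoplasmic reticulum, by 0.92 ± 0.09 (adjusted p = 9.42e-05). Cpt1c and Shisa7 did not pass (adjusted p = 0.996 and 0.853). In control, 5 were higher and 6 lower in IP, where 36.5% of all genes were called, among them Olfm3 (0.60 ± 0.11), Cacng2 (0.53 ± 0.09), Cpt1c (-0.44 ± 0.08) and Shisa7 (-0.56 ± 0.07), with adjusted p from 0.000145 for Shisa7 to 0.001 for Olfm3. With all 18 libraries in 1 fit Olfm3 and Cacng2 lost their calls (adjusted p = 0.106 and 0.0915). In tumor Shisa7 alone was called, at -0.73 ± 0.13 (adjusted p = 0.0278), where 5.09% of all genes were called. With pairing 8 were higher and 6 lower, where 35.6% of all genes were called, and 3 were called with DESeq2 and 6 with all 18 libraries in 1 fit. The Shisa7 call in tumor was lost without tumor input replicate 2 or 3 and without tumor IP replicate 1, 2 or 3 (adjusted p from 0.0738 to 0.147). Against control, AZD IP had 8 of the 30 higher and 3 lower, where 33.3% of all genes were called, with Abhd6 at 0.54 ± 0.10 (adjusted p = 0.00218) and Cacng2 at -0.68 ± 0.15 (adjusted p = 0.00565). Those 11 calls were 5 without control IP replicate 2, 5 without control IP replicate 3 and 7 without AZD IP replicate 2. AZD input had 1 higher, Cacng4 at 1.05 ± 0.21 (adjusted p = 0.00362), and 12 lower than control input, where 36.8% of all genes were called, or 7 lower without control input replicate 1. The IP-to-input ratio of none of the 30 was called between tumor and control, by edgeR or DESeq2, and none had an unadjusted p under 0.05. Between AZD and tumor, where 33.1% of all genes were called, the ratio was higher for 13, with Olfm1 at 1.06 ± 0.20 (adjusted p = 0.000863), and lower for Cacng4, at -1.12 ± 0.26 (adjusted p = 0.00375). Those 14 calls were 23 with input and IP paired, where 50.1% of all genes were called, 8 with library totals, and 8 to 9 without tumor input replicate 2, tumor IP replicate 1, AZD input replicate 1 or AZD IP replicate 2.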

How the data were processed

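The raw counts per gene and library were deposited by the authors, and STAR, DESeq2 and the mm10 build are named in the submitters' processing notes without a stated role. The sources used here give no aligner settings, annotation or counting rules. From those counts, libraries were scaled by TMM and tested with edgeR 4.0.16 (quasi-likelihood F test, filterByExpr, Benjamini-Hochberg adjustment over all genes tested, threshold 0.05). An SE is the absolute log2 fold change divided by the square root of F. Fits held 6 libraries for IP against input, 9 within a fraction and 18 for the change in the ratio. Alternatives were RLE factors, library totals, DESeq2 1.42.0, no filter, a mean of at least 5 CPM, all 18 libraries in 1 fit, the replicate block, and each library left out. In all, 21571 of the 23420 symbols matched RefSeq.

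Same-numbered input and IP libraries deviated together over 16016 genes (control r 0.27 to 0.32, tumor r 0.62 to 0.85, AZD r 0.27 to 0.56). Input and IP libraries of different numbers reached at most r = -0.0033 in control, 0.37 in tumor and 0.22 in AZD. The numbers were therefore taken to pair the fractions, which the labels do not state. In AZD the margin was small, as 0.22 is close to the lowest same-numbered value of 0.27. The main fits and the simulated counts did not use this pairing. Blocked values are printed where they change a call.

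On simulated counts with 200 genes changed by 1 on the log2 scale, the test found 73.5% for tumor against control IP (15491 genes), 36.5% for tumor IP against input (15108 genes) and 63% for AZD IP against input (14908 genes). In the data themselves 7402, 776 and 9245 genes were called in these comparisons. The adjustment depends on how many genes differ, so these shares do not give the detection rate in the data. The 10 genes, the other lists and the rule for naming genes were chosen with earlier results of these data known. From the list of other AMPA receptor genes, the rule took per comparison at most 4 called genes, those of smallest adjusted p, and at most 2 uncalled genes, those of largest p. For each subunit it took the 4 genes most alike. Transcript lengths were not used here, so the level of 1 gene is not ranked against that of another. Shares, ratios and sums over genes are read between groups and libraries only.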

Additional observations from a re-analysis of the deposited data

Results flagged for a closer look

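The change in the IP-to-input ratio between AZD and tumor differed from 0 for a pair of the 10 genes by an interaction term over all 18 libraries. The ratio of Gria4 was lower in AZD by a log2 value of -0.47 ± 0.14 (edgeR, adjusted p = 0.0149), from IP-to-input values of -0.16 in tumor and -0.62 in AZD. The ratio of Cnih2 was higher in AZD by 0.87 ± 0.20 (adjusted p = 0.00337), from -0.32 in tumor and 0.57 in AZD. Cnih2 was also lower in IP than in input in control, at -0.58, where the fractions came from the same pair of library sets as in tumor. Over all genes 33.1% were called in this comparison, a larger share than the 2 of 10 here. With input and IP of 1 number paired, 6 of the 10 genes were called, where 50.1% of all genes were. Condition and library set cannot be told apart.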

How the results depend on the processing

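No called difference changed sign under any alternative, and of 1530 values of the 10 genes under an alternative, 71 changed call and 67 changed sign without being called in either fit. The number of genes called for control IP against input was 4 with DESeq2 and 1 with all 18 libraries in 1 fit, and for tumor IP against input it was 4 with the replicate block. For the AZD-to-tumor change in the IP-to-input ratio it was 6 with the replicate block and 4 with DESeq2. Leaving out 1 library gave 2 to 7 there, 1 to 3 for AZD against tumor input and 4 to 6 for AZD against control input. The cause was not tested. For the named other AMPA receptor genes, 13 of 807 values changed call and none reversed. Between conditions within a fraction, same-numbered libraries correlated at -0.11 to 0.35, a range that includes the values of control input with control IP. The numbers were not taken to pair libraries between conditions, although these correlations do not settle it. The replicate block there took tumor against control IP from 8 to 7 calls, losing Gria2 (adjusted p = 0.0702), and changed no other call of the 10 genes. Over all genes, tumor IP against input had 776 calls, and 5433 with the replicate block. Adding 1 CPM moved no mean log2 ratio by as much as its SD. Shares of the subunits per transcript length were not run, as exon lengths were not used here. With 3 libraries a group, differences near the SE could not be detected.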

Other observations

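The log2 ratio of Cnih3 to Cnih2, chosen after the values were seen and given with no test, was higher in IP than in input in each condition. Its mean was -0.40 ± 0.07 (SD, n = 3) in control input and 0.46 ± 0.12 in control IP, -0.53 ± 0.07 and 0.27 ± 0.18 in tumor, and 0.28 ± 0.25 and 0.83 ± 0.15 in AZD. The input and IP libraries did not overlap in any condition. AZD input was above control and tumor input by more than these spreads, and the AZD libraries formed a set of their own.

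AZD IP replicate 1 stood apart for several of the 10 genes. It had the highest Grip1 (27.3 CPM, against 17.6 CPM in replicate 3), the lowest Gria3 (375 CPM, against 536 and 481 CPM), the lowest Grip2 (6.87 CPM, against 9.04 and 9.64 CPM) and the highest Cnih3 (147 CPM, against 123 and 103 CPM). It was also the library with the fewest counts, 13561511. The sum of 10 dividing-cell markers was 206 CPM in it, against 79.7 and 83.8 CPM in replicates 2 and 3. AZD input replicate 1, with 19742504 counts, stood apart in this sum as well, at 966 CPM against 397 and 307 CPM. The cause was not tested.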
